A study of Mus musculus with 2 samples.

Results

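The cells described here are keratin-14-positive mouse epidermal cells with high RNA for Krt5, Trp63, Col17a1 and Itga6. They were chosen from 3062 cells with Krt14 at 1000 CPM or more, where CPM is a gene's count of unique molecular identifiers (UMIs) in a cell, divided by the cell's total and scaled to 1000000. A basal score, the mean log2(CPM + 10) of those 4 genes, took the top 15% of cells over both libraries, which was 460 cells. Of these, 172 cells that were also in the top 15% by a contractile score of Acta2, Cnn1 and Fhl1 were left out. A further 40 cells, with 1500 CPM or more in 7 cell cycle genes together, were also left out. This left 248 selected cells among 3686 in all, with 50 in the KO library and 198 in the WT library.

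The study set cultured epidermal cells that lost Bap1, a deubiquitinase that acts on histone H2A, beside cells that kept it, in 2 single-cell RNA libraries made with a droplet 3′ kit. The KO library held cells of 9 pooled C57BL/6 neonates at postnatal day 1 with the genotype Bap1fl/fl Rosa26-CreERT2, and the WT library those of 11 pooled neonates with Rosa26-CreERT2 alone. CreERT2 is a recombinase that 4-hydroxytamoxifen switches on, here expressed from a locus active in most cell types, so its activity was not restricted to keratinocytes. Both cultures received 100 nM 4-hydroxytamoxifen for 4 days and were kept for 3 more days in medium with HMGS. With 1 library per genotype there was no replicate and no test was possible, so every interval below covers counting error only.

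Basal keratinocytes line the basement membrane of the epidermis and hold its dividing cells. They are bound to the membrane by hemidesmosomes, in which integrin α6β4 and collagen XVII (Col17a1) connect laminin-332 outside the cell with keratins 5 and 14 inside it. The transcription factor p63 (Trp63) sustains the basal program, and cells that leave the membrane lose it and go on to make the proteins of the cornified envelope.

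The promoter windows of 2 genes and 1 small RNA are shown because they belong to genes that define or lead the selected cells. Krt5 and Col17a1, both in the basal score, had an entry in the RefSeq promoter table of build GRCm38.p6, which spans 250 bases before to 50 after the gene's start. The capitals mark matches to the p53-family half-site or to TATAAA, on either strand, and both windows are printed 5′ to 3′ on the minus strand.
Krt5, chr15:101712856-101713155: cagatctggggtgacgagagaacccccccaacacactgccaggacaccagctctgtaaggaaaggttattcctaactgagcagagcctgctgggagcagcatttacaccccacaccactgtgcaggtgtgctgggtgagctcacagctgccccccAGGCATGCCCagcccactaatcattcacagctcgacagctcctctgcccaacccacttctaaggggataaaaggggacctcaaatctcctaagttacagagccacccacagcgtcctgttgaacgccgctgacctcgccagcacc
Col17a1, chr19:47691993-47692292: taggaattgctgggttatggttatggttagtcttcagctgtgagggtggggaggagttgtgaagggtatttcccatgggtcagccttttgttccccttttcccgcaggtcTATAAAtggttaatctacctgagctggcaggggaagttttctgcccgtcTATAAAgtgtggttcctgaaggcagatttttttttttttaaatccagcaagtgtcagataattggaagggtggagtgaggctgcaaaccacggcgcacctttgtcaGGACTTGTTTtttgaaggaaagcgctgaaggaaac
Each window held 1 half-site, at offset −95 from the start in Krt5 and 15 in Col17a1, and 8.36% of the 32851 windows in the table held at least 1. TATAAA stood in the Col17a1 window 2 times and in 13.6% of all windows. A match is a description of letters and shows no binding.
The mature miR-205-5p, at chr1:193507503-193507524 on the minus strand, has its seed, bases 2 to 8, in capitals.
mmu-miR-205-5p: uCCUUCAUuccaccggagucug

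The selected cells made up 3.68% of Krt14 cells in the KO library (50 of 1360, exact Clopper-Pearson interval 2.74 to 4.82%) and 11.6% in the WT library (198 of 1702, 10.1 to 13.3%). These shares follow from the pooled limit and are a description. When the top 15% was taken within each library, the order turned round, with 9.19% in KO and 7.99% in WT. The limit of the basal score was 6.70. The 3 cells just inside it scored 6.70, 6.71 and 6.71, and the 3 just outside scored 6.69 each. Within 0.25 of the limit lay 34 KO cells, of which 14 were selected, and 111 WT cells, of which 47 were selected.

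**Figure D1:**
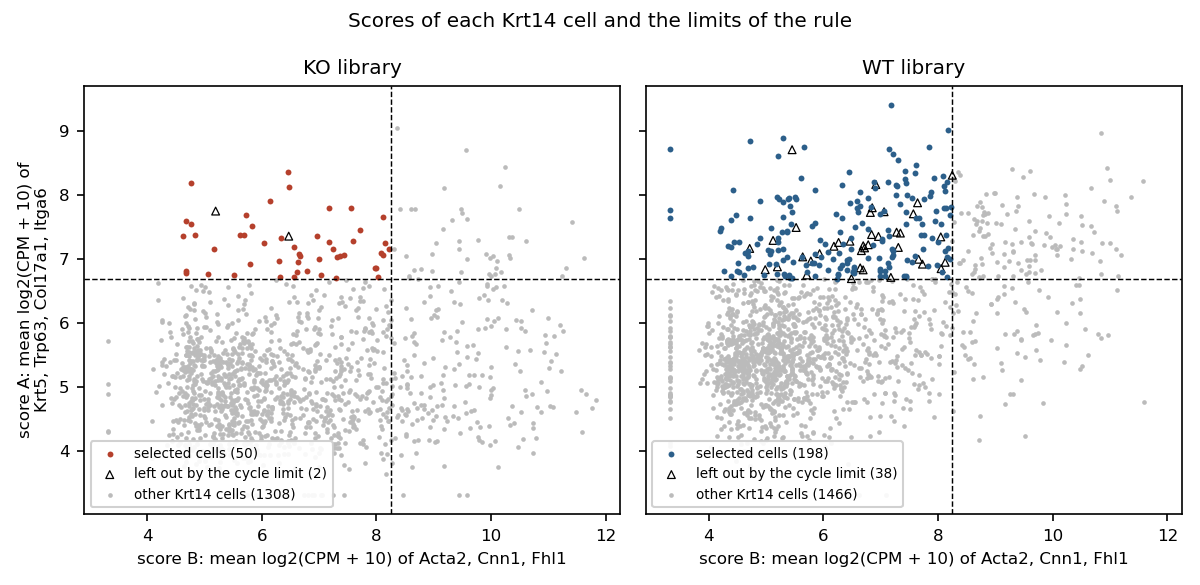
Basal score (vertical) against contractile score (horizontal), both mean log2(CPM + 10), for each Krt14 cell of the KO and the WT library, with dashed lines at the limits of the rule. The 50 KO and 198 WT selected cells lie above the basal limit and left of the contractile limit, with contractile scores of up to 8.22 in KO and 8.23 in WT.

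The libraries held 64954113 UMIs in KO and 77579465 in WT, of which the selected cells gave 1544180 in KO and 7599897 in WT. Selected cells were shallower than the other Krt14 cells, with medians of 24467 against 37642 UMIs in KO and 32390 against 40686 UMIs in WT. Between the libraries 3 cell barcodes were shared, and 0 of them were selected in both. Membership also moved with depth: after each cell was thinned to 8000 UMIs, the rule took 290 cells, and the 159 shared ones were 64.1% of the original selection and 54.8% of the thinned one. Bap1 had 35 UMIs (22.7 CPM) in KO selected cells and 111 UMIs (14.6 CPM) in WT selected cells, a log2 ratio of 0.63 (95% counting interval 0.04 to 1.19). The counts carry no position within the gene, and 3′ tags outside a deleted stretch do not register its loss, so they do not check the labels, and KO below means the library labelled knockout.

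The values that chose the cells are given first, as a description. Krt5, the partner of keratin 14, stood at 1321 CPM in KO and 2049 CPM in WT selected cells, against 643 CPM in KO and 967 CPM in WT for the other Krt14 cells. It had a UMI in every selected cell, with a median per cell of 1277 CPM in KO and 1996 CPM in WT. Trp63 summed to 71.9 CPM in KO and 63.6 CPM in WT selected cells, against 12.6 CPM in KO and 22.2 CPM in WT elsewhere. It was detected in 42 of the 50 KO and 178 of the 198 WT selected cells, so 8 KO and 20 WT cells met the rule without a Trp63 UMI. Col17a1 had the widest gap of the 4, with 78.4 CPM in KO and 115 CPM in WT selected cells, against 8.58 CPM in KO and 23.1 CPM in WT for the rest. Itga6, the α6 integrin chain, summed to 83.5 CPM in KO and 86.4 CPM in WT selected cells, against 24.4 CPM in KO and 39.4 CPM in WT for the rest. Krt14 itself summed to 4103 CPM in KO and 5024 CPM in WT selected cells, against 5216 CPM in KO and 5992 CPM in WT. Its medians per cell had the opposite order, at 4098 CPM in KO and 4559 CPM in WT selected cells, against 3121 CPM in KO and 3884 CPM in WT.

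The working name of these cells, basal p63-high without a contractile program, rests for its basal side on genes the rule used, which cannot check it, and went against the data for its contractile side. Cells at the top of the contractile score were removed by the rule, yet the median contractile score of the selected cells was 6.62 in KO and 6.45 in WT, against 6.23 in KO and 5.38 in WT for the other Krt14 cells. Acta2, smooth muscle α-actin, had a median per selected cell of 1519 CPM in KO and 446 CPM in WT, against 955 CPM in KO and 174 CPM in WT for the others. In sums the order was the other way, with 2529 CPM in KO and 1028 CPM in WT selected cells, against 3002 CPM in KO and 1424 CPM in WT. Of the 50 KO selected cells 28 had Acta2 at 1000 CPM or more (56.0%, 41.3 to 70.0%), and of the 198 WT selected cells 59 did (29.8%, 23.5 to 36.7%). The other Krt14 cells reached that level in 48.9% of cases in KO and 26.5% in WT. Cnn1, the smooth muscle calponin, summed to 7.77 CPM in KO and 27.6 CPM in WT selected cells, against 89.5 CPM in KO and 67.1 CPM in WT. The cells left out for their contractile score had 360 CPM of Cnn1 in KO and 400 CPM in WT. They stayed among the other Krt14 cells, so the rule set this gap in part. Fhl1 stood at 149 CPM in KO and 131 CPM in WT selected cells, against 135 CPM in KO and 117 CPM in WT. The cells are therefore called by their leading genes here.

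Contractile and actin bundle genes outside the rule passed the fold limit at about the share of all genes in either direction. Tagln (SM22), an actin cross-linker of smooth muscle, summed to 1476 CPM in KO and 1032 CPM in WT selected cells, against 1270 CPM in KO and 895 CPM in WT, with log2 ratios of 0.22 in KO and 0.20 in WT. Its medians per cell lay further apart, with a median of 773 CPM per KO and 303 CPM per WT selected cell, against 127 CPM in KO and 78.0 CPM in WT. Of 24 measured genes on this list, 1 was at least 1.5-fold higher in both libraries and 1 at least 1.5-fold lower, with median log2 ratios of 0.26 in KO and 0.27 in WT. Across 12743 genes measured in this comparison, 375 (2.94%) were at least 1.5-fold higher in the selected cells of both libraries and 496 (3.89%) at least 1.5-fold lower. The higher one was Cav1, a caveolar coat protein, at 69.9 CPM in KO and 157 CPM in WT selected cells, against 34.9 CPM in KO and 88.5 CPM in WT. The lower one was Actg2, the enteric smooth muscle actin, at 9.07 CPM in KO and 3.95 CPM in WT, against 37.2 CPM in KO and 9.10 CPM in WT. Against the 46 KO and 126 WT cells that passed the basal limit but were left out for their contractile score, 6 of 23 measured list genes were at least 1.5-fold lower in both libraries and 0 higher, where the share of all 6869 genes was 1.47% lower and 1.97% higher. Those cells were chosen for high contractile RNA, so related genes are not free of that choice and the count is a description.

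**Figure D2:**
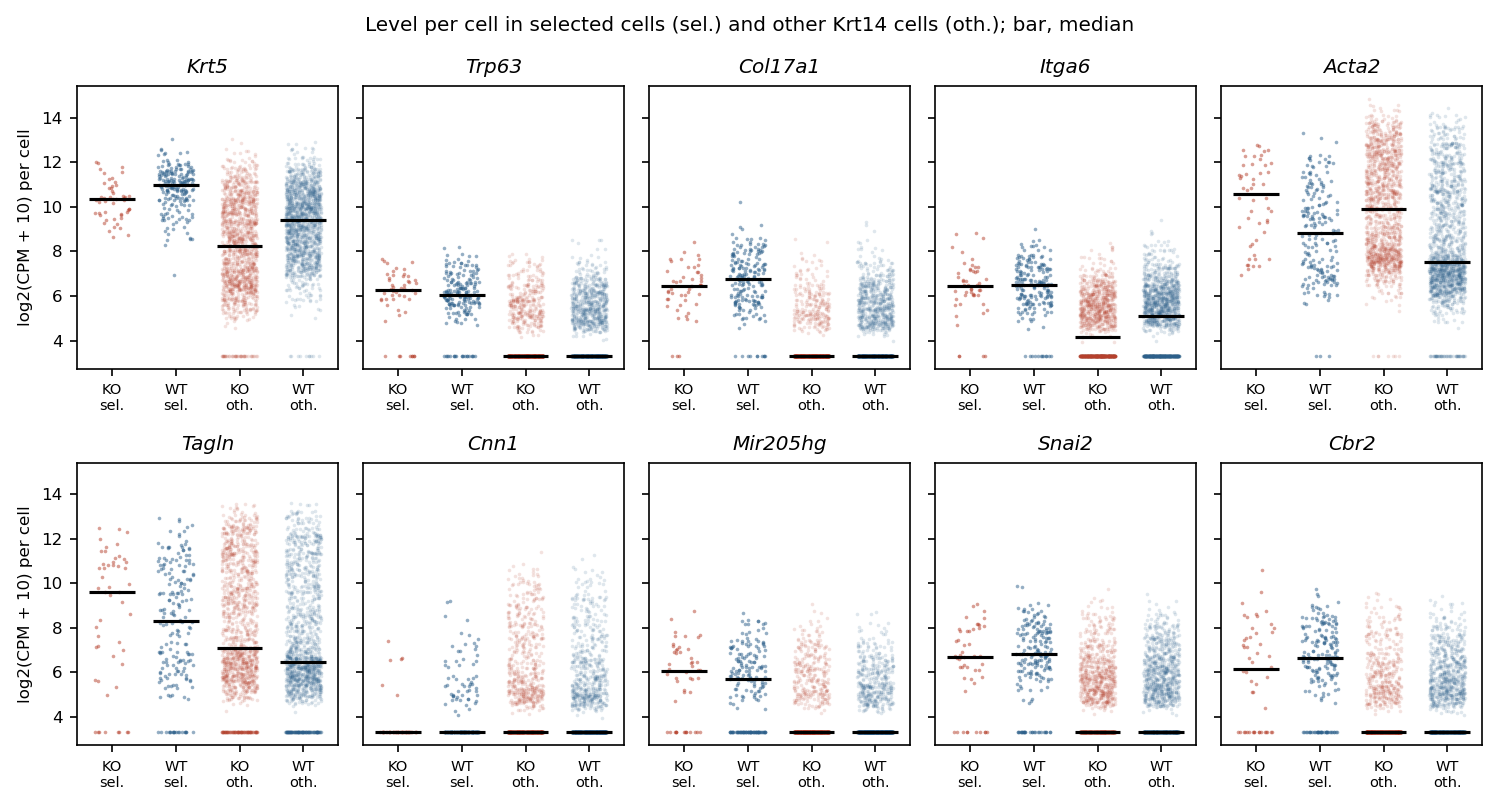
Level per cell, as log2(CPM + 10), of 10 genes in KO and WT selected cells (sel.) and in KO and WT other Krt14 cells (oth.); each point is a cell and each bar a median. Acta2 reached 6885 CPM in KO and 10081 CPM in WT selected cells, against 29317 CPM in KO and 22197 CPM in WT other cells, while Cnn1 has a median of 0 CPM in all 4 groups.

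Other basal markers, which the rule did not use, followed the score genes. Of 7 measured, 6 were at least 1.5-fold higher in the selected cells of both libraries and 0 lower. Itgb4, the β4 partner of integrin α6, stood at 299 CPM in KO and 234 CPM in WT selected cells, against 135 CPM in KO and 108 CPM in WT. Itga3, the α3 integrin chain that binds laminin-332, stood at 215 CPM in KO and 164 CPM in WT, against 102 CPM in KO and 82.0 CPM in WT. Cdh3 (P-cadherin), Itgb1, Dst and Lamb3 were the other 4. Krt15, a keratin of resting basal cells and of the hair follicle bulge, was near its floor everywhere, with 3.24 CPM in KO and 3.68 CPM in WT selected cells. Against the cells left out for their contractile score, 0 of 6 measured basal markers were at least 1.5-fold higher or lower in both libraries. All genes of cells chosen by a score share the choice of cells, so these values describe the selection and test nothing.

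The anchoring apparatus was high as a group against the other Krt14 cells. Of 20 measured genes for hemidesmosomes and the basement membrane, 10 were at least 1.5-fold higher in both libraries and 0 lower, with median log2 ratios of 0.70 in KO and 0.58 in WT, where the median of all genes was 0.06 in KO and 0.03 in WT. Itgb4, Itga3, Itgb1, Dst and Lamb3 are also among the basal markers above, so they are counted in both lists. Laminin-332 chains were among the higher genes. Lamb3, the β3 chain, had 157 CPM in KO and 131 CPM in WT, against 49.0 CPM in KO and 54.0 CPM in WT. Lama3, the α3 chain, had 164 CPM in KO and 136 CPM in WT, against 58.2 CPM in KO and 65.4 CPM in WT. Dst, whose epithelial form (BPAG1) ties keratins to the hemidesmosome, had 156 CPM in KO and 162 CPM in WT, against 41.0 CPM in KO and 68.2 CPM in WT, and its annotation overlaps Bend6. Plec, the other plakin of the plaque, and Col7a1, the anchoring fibril collagen, were also on the list at 1.5-fold or more. Type IV collagen differed less, with log2 ratios for Col4a1 of −0.04 in KO and 0.40 in WT. The cells left out for their contractile score had similar levels of the list. Against them, 0 of 19 measured genes were at least 1.5-fold higher or lower in both libraries, with medians of −0.02 in KO and −0.13 in WT. Over all genes in that comparison, 1.97% were higher and 1.47% lower.

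Known p63 targets made a list that shares 5 genes with the adhesion genes above. Of 18 measured, 10 were at least 1.5-fold higher in both libraries and 1 lower, with medians of 0.91 in KO and 0.70 in WT. Bnc1 (basonuclin), a zinc finger protein of basal cells, had 32.4 CPM in KO and 33.4 CPM in WT, against 15.4 CPM in KO and 18.2 CPM in WT. The Notch ligand Jag2 had 9.07 CPM in KO and 5.92 CPM in WT, against 2.73 CPM in KO and 2.46 CPM in WT. Gpx2, a glutathione peroxidase, was the lower one, at 5.83 CPM in KO and 4.87 CPM in WT, against 33.7 CPM in KO and 9.05 CPM in WT. Against the cells left out for their contractile score, 0 of 14 measured targets were at least 1.5-fold higher in both libraries and 1 lower.

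Over all 12743 measured genes, the rule's own included, 92 (0.722%) were at least 2-fold higher in the selected cells of both libraries. Among ranked genes outside the rule, the 2 with the highest bound were Mir205 and Mir205hg, the microRNA and its host transcript. Mir205 lies inside the span of Mir205hg at chr1:193506460-193510210, so that reads of one can be counted for the other. Mir205hg had a UMI in 36 of 50 KO and 135 of 198 WT selected cells, and summed to 67.3 CPM in KO and 52.0 CPM in WT, against 13.3 CPM in KO and 12.4 CPM in WT elsewhere. At 8000 UMIs per cell it was detected in 46.0% of KO and 35.4% of WT selected cells, against 8.40% of other Krt14 cells in KO and 8.11% in WT. In 20 KO and 36 WT cells with high myeloid RNA, which should lack it, it had 0 UMIs in each library. The counts come from poly(A) tags at the locus and do not measure the mature miR-205 printed above. Snai2 (Slug), a repressor that keeps keratinocytes undifferentiated, had 141 CPM in KO and 139 CPM in WT selected cells, against 37.1 CPM in KO and 47.6 CPM in WT. Cbr2, a carbonyl reductase, had 157 CPM in KO and 144 CPM in WT, against 29.8 CPM in KO and 39.3 CPM in WT. It was detected in 33 KO and 163 WT selected cells. The cells left out for their contractile score had 181 CPM of Snai2 in KO and 158 CPM in WT. They had 159 CPM of Cbr2 in KO and 124 CPM in WT, and 66.6 CPM of Mir205hg in KO and 38.1 CPM in WT.

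Several others named by rank encode surface or secreted proteins. Pdpn (podoplanin), a membrane mucin of basal and wound-edge keratinocytes, had 93.3 CPM in KO and 151 CPM in WT selected cells, against 24.7 CPM in KO and 55.5 CPM in WT. Jag1, a Notch ligand, had 738 CPM in KO and 379 CPM in WT, against 298 CPM in KO and 171 CPM in WT, and was detected in every KO and in 194 WT selected cells. Dkk3, a secreted Dickkopf family protein, had 96.5 CPM in KO and 94.5 CPM in WT, against 32.3 CPM in KO and 35.4 CPM in WT. Adora2b (an adenosine receptor), Flt3l (a cytokine for dendritic cell precursors), Ltbp4 (which holds latent TGF-β in the matrix), Vsnl1 (a calcium sensor) and Myorg (a glycosidase-like membrane protein) were the other 5 named by rank. Their log2 ratios lay between 2.15 and 2.90 in KO and between 1.32 and 1.98 in WT, on 11 to 99 KO and 66 to 202 WT UMIs in the selected cells. Thinned cells chosen anew gave log2 ratios of 0.83 or more in KO and 0.95 or more in WT for the genes of this group named by rank. The cells left out for their contractile score also had these RNAs, so they are not particular to the selected cells. Those cells had 74.2 CPM of Pdpn in KO and 86.3 CPM in WT, 570 and 305 CPM of Jag1, and 117 and 99.3 CPM of Dkk3. They had 56.6 CPM of Adora2b in KO and 23.1 CPM in WT, and 35.1 and 11.4 CPM of Flt3l.

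**Figure D3:**
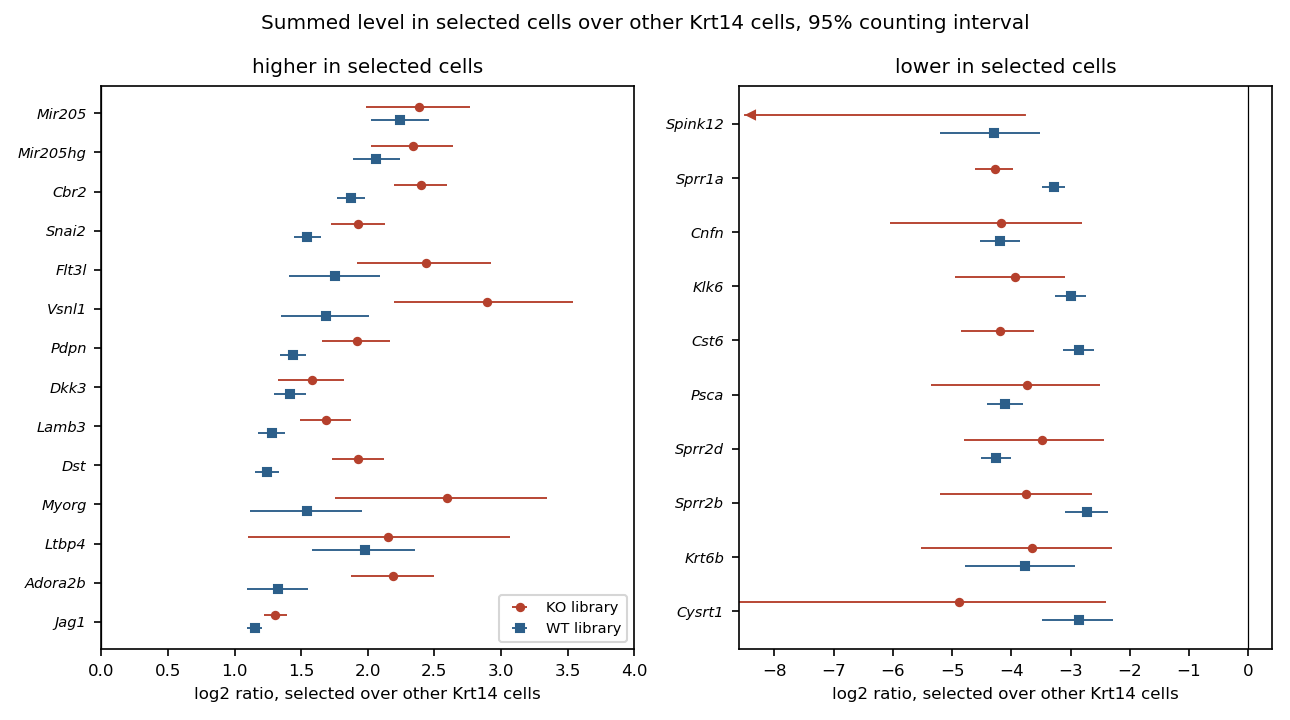
Log2 ratio of the summed level in selected cells over other Krt14 cells, with 95% counting intervals, for the KO library (circles) and the WT library (squares), for 14 higher and 10 lower genes named by rank. The ratios of the higher genes are above 1 in both libraries, and the arrow marks Spink12, which had 0 UMIs in KO selected cells.

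Differentiation genes were low. Of 17 measured genes of the cornified envelope and late differentiation, 11 passed the 1.5-fold limit downward in both libraries and 0 upward. Their list had medians of −1.49 in KO and −1.88 in WT. Sprr1a, a small proline-rich envelope precursor, had 53.1 CPM in KO and 27.9 CPM in WT selected cells, against 1034 CPM in KO and 272 CPM in WT. Ivl (involucrin), an envelope scaffold, had 13.0 CPM in KO and 15 CPM in WT, against 95.9 CPM in KO and 64.0 CPM in WT. Over all genes 210 (1.65%) were at least 2-fold lower in both libraries. Those named by rank included Sprr2b, Sprr2d and Cnfn of the envelope, the protease Klk6, the protease inhibitors Cst6 and Spink12, the surface protein Psca, and Krt6b and Cysrt1. Spink12 had 0 UMIs in KO selected cells, where the floor of 3 UMIs is 1.94 CPM, and 13 UMIs (1.71 CPM) in WT selected cells, against 32.5 CPM in KO and 33.4 CPM in WT. Several of these rest on few UMIs in KO selected cells, with 4 for Cnfn, 4 for Krt6b and 1 for Cysrt1. In cells chosen after thinning, Sprr1a had log2 ratios of −0.76 in KO and −1.19 in WT, against −4.28 and −3.29 in the original selection. Cst6 then had −0.73 and Psca −0.08 in KO, and Spink12 had −0.22 in WT. Cnfn had −4.10 in KO and −4.16 in WT after thinning. The Sprr2 genes and the Krt6 pair are close copies whose reads the counting may have split. Against the cells left out for their contractile score, 0 of 7 measured envelope genes were at least 1.5-fold lower or higher in both libraries. Their medians there were 0.11 in KO and 0.29 in WT.

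Keratins of simple epithelium, common in cultured cells, were lower too. Krt18 had 2239 CPM in KO and 2081 CPM in WT selected cells, against 7862 CPM in KO and 4852 CPM in WT. Krt19 had 25.9 CPM in KO and 48.7 CPM in WT, against 211 CPM in KO and 234 CPM in WT. All 4 measured keratins of that kind were at least 1.5-fold lower in both libraries, as were 8 of 11 genes for stress and wounding. Krt17, the most abundant keratin measured, stood apart from this, with 17146 CPM in KO and 17881 CPM in WT selected cells, against 17398 CPM in KO and 18072 CPM in WT. Krt10, an early suprabasal keratin, had 28.5 CPM in KO and 28.6 CPM in WT, against 28.7 CPM in KO and 30.7 CPM in WT. Against the cells left out for their contractile score, 0 of the 4 simple epithelium keratins were at least 1.5-fold lower in both libraries. Of 5 measured stress and wounding genes, 1 was higher and 0 lower.

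Markers of other cell types differed in level. The 5 myeloid markers together gave 7.12 CPM in KO and 12.8 CPM in WT, the 6 fibroblast markers 7.12 CPM in KO and 4.21 CPM in WT, and the 3 endothelial markers 1.30 CPM in KO and 2.50 CPM in WT. Col1a2 and Col3a1 had 0 UMIs, as did Atoh1, Isl1 and Sox2 of Merkel cells. The 5 melanocyte markers had a median sum per cell of 217 CPM in KO and 230 CPM in WT, close to the 208 CPM in KO and 219 CPM in WT of the other Krt14 cells. Their summed level was 298 CPM in KO and 251 CPM in WT selected cells, and its part in the results was not tested.

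Between genotypes, Mdk, Csrp2 and Lgr6 were higher and Fst, Crip1 and Pmp22 lower in KO than in WT selected cells. Of 9734 genes measured in the selected cells, 169 (1.74%) were at least 2-fold higher in KO and 628 (6.45%) at least 2-fold lower, with a median log2 ratio over all genes of 0.02. With the basal limit set within each library, 377 were at least 2-fold lower. In the other Krt14 cells 87 (0.894%) of these genes were at least 2-fold higher and 345 (3.54%) lower. The 2 kinds of cell shared 52 of the higher genes, which are 30.8% of the list from selected cells and 59.8% of the other list. They shared 226 of the lower ones, which are 36% of the list from selected cells and 65.5% of the other list. The count moved with the minimum over both libraries: in place of 169 higher and 628 lower genes at 50 UMIs, there were 312 higher and 1056 lower at 20 UMIs, and 54 higher and 182 lower at 200 UMIs. The number of genes measured also moves with the minimum and the cells taken, so these counts are not shares. KO selected cells gave 1544180 UMIs against 7599897 in WT, so an unchanged gene near the minimum of 50 has few KO UMIs. Counting error alone can take such genes past 2-fold, and how many it took is not given here.

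Mdk (midkine), a heparin-binding growth factor, summed to 35.0 CPM in KO and 5.0 CPM in WT selected cells, a log2 ratio of 2.81 (2.18 to 3.44). It was detected in 18 of 50 KO and 21 of 198 WT cells. The other Krt14 cells gave 35.7 CPM in KO and 5.20 CPM in WT, a log2 ratio of 2.78. In the selected cells the Mdk ratio was 4.13 with the basal limit set within each library, 4.09 in cells with Acta2 at 1000 CPM or more and 2.19 in cells under it. Its annotation overlaps Chrm4. Csrp2, a LIM domain protein of actin-rich cells, had 119 CPM in KO and 24.7 CPM in WT selected cells (2.27, 1.97 to 2.57), against a ratio of 1.64 in the others. Lgr6, an R-spondin receptor that marks epidermal stem cells, had 31.7 CPM in KO and 5.26 CPM in WT (2.59, 1.96 to 3.23), against 1.78. A UMI of Lgr6 was present in 26 of 50 KO and 35 of 198 WT selected cells, and at 8000 UMIs per cell in 30.0% of KO and 4.04% of WT ones.

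Adm (adrenomedullin), a vasoactive peptide, was higher in KO selected cells with a smaller difference elsewhere. It had 328 CPM in KO and 93.9 CPM in WT selected cells, a log2 ratio of 1.81 (1.64 to 1.97), against 0.17 in the other Krt14 cells, and 24.9% of its KO UMIs came from 1 cell. The Adm ratio was 1.13 with the basal limit set within each library and 0.77 in cells chosen after thinning. Thbd (thrombomodulin), a membrane receptor of thrombin, had 22.7 CPM in KO and 3.82 CPM in WT (2.57, 1.82 to 3.33), against 0.53, but in cells chosen after thinning its ratio was −0.05. Edn2 (endothelin 2) had 36.3 CPM in KO and 7.63 CPM in WT, and 50% of its KO UMIs came from 1 cell. The Edn2 log2 ratio was 2.25, but 0.03 with the top 20% by basal score. The others named by rank were Nrep, Nnat, Igfbp4 (an IGF-binding protein), Il1rl1 (the receptor of interleukin 33), Cox6b2 and Pcolce2 (an enhancer of procollagen processing). Their ratios lay between 1.89 and 2.76 in selected cells and between 0.97 and 1.49 in the others. Subsets of the selected cells, split after the values were seen, gave smaller ones: 0.22 for Cox6b2 in cells with Acta2 at 1000 CPM or more, and 0.41 for Il1rl1 and 0.54 for Igfbp4 in cells under the median depth. Whether these ratios differ between the 2 kinds of cell was not tested.

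Fst (follistatin), a secreted binder of activin, was the first of the lower genes named by rank. It summed to 35.6 CPM in KO and 484 CPM in WT selected cells, a log2 ratio of −3.76 (−4.18 to −3.38), or 13.6 times lower, and −1.76 in cells chosen after thinning. Detection was 16 of 50 KO and 142 of 198 WT cells, and 41.8% of the KO UMIs came from 1 cell. The other Krt14 cells gave 73.8 CPM in KO and 293 CPM in WT, a ratio of −1.99. Inhba, which encodes the activin A chain that follistatin binds, stood at 1496 CPM in KO and 963 CPM in WT selected cells (0.63, 0.57 to 0.70), a ratio that the other cells matched at 0.61. Crip1, a LIM protein, had 9.07 CPM in KO and 86.8 CPM in WT (−3.26, −4.14 to −2.50), and −2.27 after thinning, against −2.81 in the others. Pmp22, a membrane protein of cell junctions and myelin, had 28.5 CPM in KO and 171 CPM in WT (−2.59, −3.06 to −2.15), and −1.54 after thinning, against −1.90.

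Lcn2 (lipocalin 2), a siderophore-binding protein of inflamed epithelium, was kept out of the ranking because 1 cell gave 52.6% of its WT UMIs and because KO cells low in Krt14 had over 10 times its level in KO selected cells. It had 22.0 CPM in KO and 365 CPM in WT selected cells (−4.05, −4.58 to −3.56), against −1.10 in the other Krt14 cells. Several of the other lower genes rested on few KO UMIs or changed with the rule. Cxcl5, a neutrophil chemokine, had 88.1 CPM in KO and 598 CPM in WT selected cells (−2.76), but 83.1% of its KO UMIs came from 1 cell, and the ratio was −4.86 without the top cell of each library and 0.15 in cells chosen after thinning. Wfdc18, a secreted whey acidic family protein, had 88.1 CPM in KO and 511 CPM in WT (−2.54), against 0.23 in the others, and 0.75 where the limit was set within each library. Pdzk1ip1 had 1 UMI and Prss27, a serine protease, 6 UMIs in KO selected cells, and both were higher in KO where the limit was set within each library, with log2 ratios of 0.82 and 2.69. Rtn1, Tmem54 and Rec114 had 4, 2 and 8 UMIs in KO selected cells. Rassf9, a Ras-association protein of epidermal differentiation, had 22.0 CPM in KO and 132 CPM in WT (−2.58), against −0.66, and 35.3% of its KO UMIs came from 1 cell. The Rassf9 ratio was −0.96 with the limit set within each library and −1.01 after thinning.

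**Figure D4:**
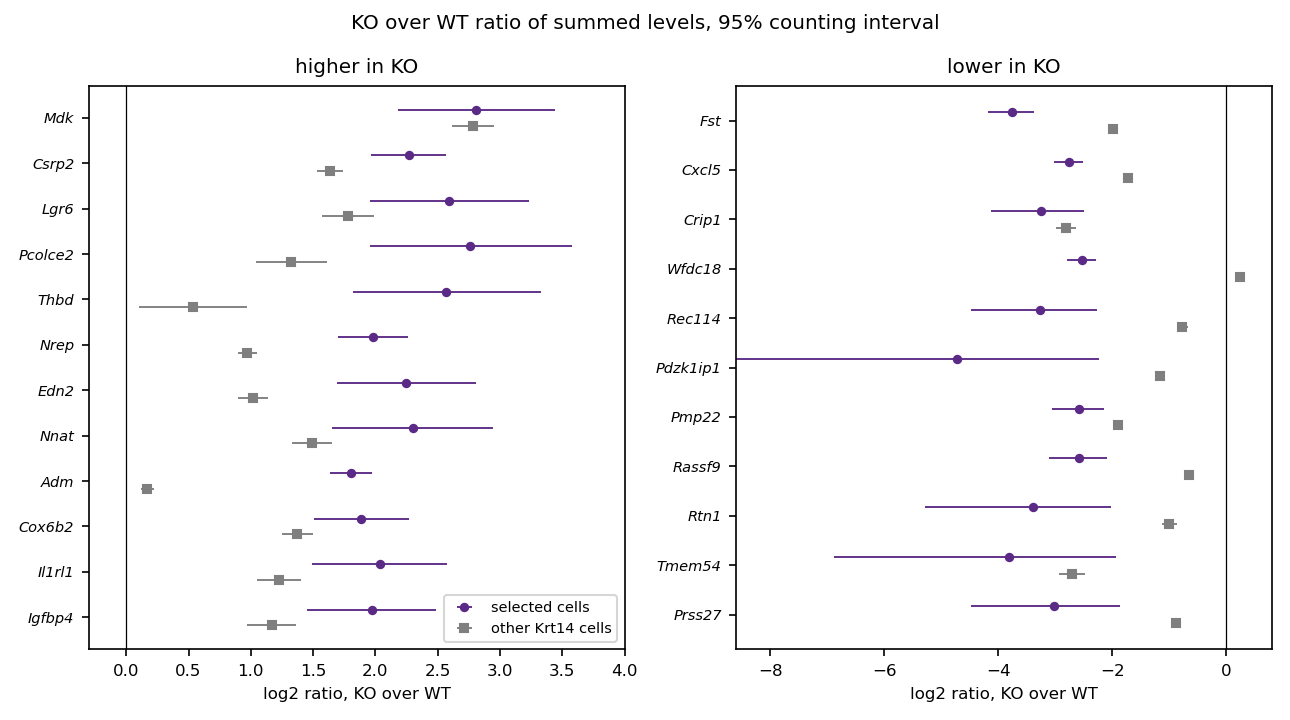
Log2 ratio of KO over WT, with 95% counting intervals, in selected cells (circles) and in other Krt14 cells (squares), for 12 genes named as higher and 11 named as lower in KO selected cells. Mdk has ratios of 2.81 in selected and 2.78 in other cells, while Wfdc18 is lower in KO selected cells at −2.54 and slightly higher in the other KO cells at 0.23.

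Anchoring genes outside the rule differed little by genotype in the selected cells. These cells passed a pooled limit on Krt5, Trp63, Col17a1 and Itga6 in both libraries, so the levels of related genes are not free of the rule. Col17a1, a rule gene outside the list, had a log2 ratio of −0.56 (−0.84 to −0.28), against −1.43 in the other Krt14 cells. Itga6, also a rule gene, had −0.05, against −0.69. Of 19 measured genes for hemidesmosomes and the basement membrane, 1 was at least 1.5-fold higher in KO selected cells and 0 lower, where the shares of all genes at that fold were 7.88% higher and 14.3% lower, and in the other Krt14 cells 3.10% higher and 9.04% lower. The higher one was Lamb1, with 177 CPM in KO and 109 CPM in WT. The 20 ribosomal protein genes had 0 past the fold either way. Of 17 p63 targets, 2 were higher and 3 lower, with Jag2 and Tfap2c higher and the desmosomal cadherins Dsc3 and Dsg3 among the lower ones. Dsc3 had a log2 ratio of −0.64, against 0.15 in the other Krt14 cells, and Dsg3 one of −0.62, against −0.18.

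Notch genes leaned higher in KO selected cells. Over all genes measured in the selected cells, 7.88% were at least 1.5-fold higher in KO and 14.3% lower. Of 10 measured Notch genes, 4 were at least 1.5-fold higher and 0 lower. Their median was 0.48, against 0.16 for the same genes in the other Krt14 cells. Under the alternatives computed, the median in selected cells lay between 0.05 and 0.58. Jag1 had a log2 ratio of 0.96 (0.86 to 1.06), against 0.80 (0.77 to 0.84) in the other Krt14 cells. Hes1, a Notch target, stood at 716 CPM in KO and 476 CPM in WT selected cells (0.59, 0.49 to 0.69). Jag2 and Rbpj, the nuclear effector, had the same sign on few UMIs, with intervals that reached below 0. Among S phase and replication genes, 6 of 22 were higher and 5 lower, with a median of 0.27, or −0.24 to 0.61 under the alternatives computed. In the other Krt14 cells 0 of these genes were higher and 6 lower, with a median of −0.30. In the selected cells the higher ones included 2 genes of the replicative helicase, Mcm6 at 45.3 CPM in KO and 18.7 CPM in WT and Mcm3 at 31.1 CPM in KO and 12.9 CPM in WT. The lower ones included Rrm2 at 18.8 CPM in KO and 42.5 CPM in WT. The cell cycle limit of the rule had removed 2 KO and 38 WT cells with high mitotic RNA, and such cells stayed among the other Krt14 cells.

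Matrix and contractile genes split both ways between genotypes. At 1.5-fold, 7.88% of all measured genes were higher in KO selected cells and 14.3% lower. Of 16 measured targets of YAP and SRF and genes of the provisional matrix, 5 were at least 1.5-fold higher in KO selected cells and 4 lower, with a median of 0.00, against 0.02 in the other Krt14 cells. Ccn2, a matricellular YAP target, had 233 CPM in KO and 438 CPM in WT (−0.91), against 0.11, and Thbs1 (thrombospondin 1) 377 CPM in KO and 659 CPM in WT (−0.81), against 0.13. Fn1 (fibronectin) had 1552 CPM in KO and 543 CPM in WT selected cells, a log2 ratio of 1.52, against 1.64 in the other Krt14 cells. Tnc (tenascin C), a matrix protein of wounds, had 1268 CPM in KO and 551 CPM in WT (1.20), against 1.42. Acta2 itself had a ratio of 1.30 (1.24 to 1.35), against 1.08, and Myl9, a myosin light chain, 1.44, against 1.48. Of 22 contractile list genes, 3 were at least 1.5-fold higher and 1 lower, with a median of 0.20, and the lower one was Cav1 at −1.16.

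Antigen presentation and interferon genes leaned lower in KO. Among all genes measured in the selected cells, 14.3% passed 1.5-fold downward and 7.88% upward. Of 13 measured genes of MHC class I presentation, 7 passed the 1.5-fold limit downward and 0 upward, and their list had a median of −0.71, against −0.35 in the other Krt14 cells. B2m, the light chain of class I molecules, had 728 CPM in KO and 1215 CPM in WT selected cells (−0.74, −0.83 to −0.65). The class I heavy chain H2-K1 had 124 CPM in KO and 203 CPM in WT (−0.71, −0.94 to −0.49), and the immunoproteasome subunit Psmb8 5.18 CPM in KO and 25.7 CPM in WT (−2.31, −3.54 to −1.30). Among 11 genes that interferons induce, 6 passed that limit downward and 1 upward, with Bst2 (tetherin), an antiviral membrane protein, at 65.4 CPM in KO and 218 CPM in WT (−1.74, −2.04 to −1.45). Those genes had a median of −0.69, against −0.47 elsewhere. Of 14 immediate early factors 6 were lower and 1 higher. Egr1 had 15.5 CPM in KO and 38.7 CPM in WT, and Fos 28.5 CPM in KO and 62.9 CPM in WT, with ratios of −1.32 and −1.14, against −1.23 and −1.34 in the other Krt14 cells.

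Transcription factors of keratinocytes split both ways, with 6 of 27 higher and 8 lower and a median of −0.02. The shares of all genes past 1.5-fold in selected cells were 7.88% higher and 14.3% lower. Runx1 stood at 221 CPM in KO and 139 CPM in WT (0.68), and Bnc2 (basonuclin 2) at 16.8 CPM in KO and 4.74 CPM in WT (1.83). Foxn1, a factor of hair and of early keratinocyte differentiation, stood at 4.53 CPM in KO and 21.2 CPM in WT (−2.22), and Gata3 at 11.0 CPM in KO and 28.8 CPM in WT (−1.39). Trp63 differed by 0.18 (−0.13 to 0.48), where the rule fixed its level in part. Of 31 genes for BAP1 partners, Polycomb proteins and H2A ubiquitin enzymes 7 were higher and 3 lower. Ezh2, the Polycomb methyltransferase, had 75.8 CPM in KO and 49.2 CPM in WT (0.62, 0.31 to 0.93), against −0.02 in the other cells. Asxl2, a subunit that BAP1 needs for its activity, had 35.6 CPM in KO and 19.5 CPM in WT (0.87, 0.40 to 1.33), against 0.27.

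**Figure D5:**
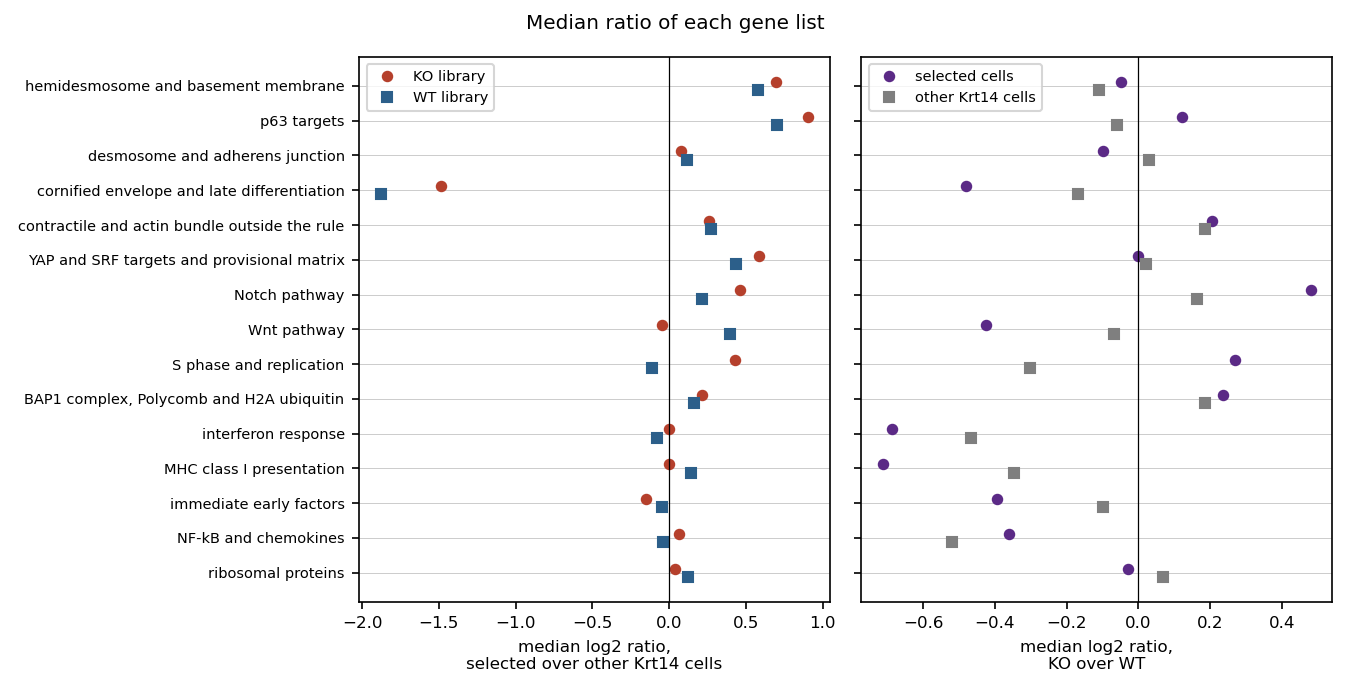
Median log2 ratio of 15 gene lists, for selected over other Krt14 cells in the KO and the WT library (left) and for KO over WT in selected and in other Krt14 cells (right). Adhesion genes and p63 targets are above 0 and the cornified envelope below 0 in both libraries, and MHC class I and interferon lists have the lowest KO over WT medians shown for selected cells, −0.71 and −0.69.

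The selected cells were not uniform in Acta2, and a split at 1000 CPM, chosen after the values were seen, compared the 28 KO and 59 WT cells at or over it with the 22 KO and 139 WT cells under it. The share of 7299 measured genes at least 1.5-fold higher in both libraries was 0.466% and lower 0.836%. Fhl1 shared in the rule's score, and its log2 ratio was 0.99 in KO and 1.02 in WT. Fn1 followed, with 0.64 in KO and 0.79 in WT, and Tagln with 1.06 in KO and 0.59 in WT. Trp63 was near level, at −0.04 in KO and −0.13 in WT. Lcn2 had −1.15 in WT, where a single cell held most of its UMIs. In KO it had 0.51, on 24 UMIs in the Acta2-high and 10 in the Acta2-low cells. Fst had −0.56 in WT and −1.91 in KO (−2.83 to −1.05). The KO value rests on 17 UMIs in the Acta2-high and 38 in the Acta2-low cells, and a single cell held 41.8% of these UMIs. In the Acta2-high cells Fst had a KO over WT ratio of −4.36 and in the Acta2-low cells −3.01, and Fn1 had 1.21 and 1.36.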

How the data were processed

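Mouse epidermal cells were measured in 2 libraries, 1 labelled Bap1 knockout and 1 wild type. The authors deposited a table of raw counts per library, genes by cells, read here as UMI counts from their whole numbers. The submitters' processing notes name Cell Ranger 2.1 and Seurat 2.0, without their roles. Cell calling, doublet removal and counting strand are not given in the sources used. No doublet caller was run. Of 36528 gene identifiers 31049 matched a RefSeq symbol of GRCm38.p6. The other 5479, with 2.67% of UMIs, stayed in the totals.

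The selected cells and the 42 gene lists were chosen with earlier results of these data known, so no list is independent support. UMIs were summed per library over selected and over other Krt14 cells and divided by summed totals. Intervals at 95% are conditional exact for ratios and Clopper-Pearson for shares. PCR and droplet losses are not covered. A gene needed 50 UMIs: over both libraries' selected cells for KO over WT, and in each library's selected and other cells together for the comparison of those. Single genes were called at 2-fold and list genes at 1.5-fold.

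The genes named by rank were the 15 highest and 10 lowest of selected over other cells and the 12 highest and lowest of KO over WT, ranked by the interval bound nearest 0. Sex chromosome genes, haemoglobins, mitochondrial genes, numbered gene models, genes with over 25% of selected-cell UMIs in 1 cell over both libraries and possible free RNA (at least 10-fold higher in cells with Krt14 under 100 CPM) were left out of the ranking. Rule genes and Bap1 were fixed by name. From each list up to 6 genes were to be named, the extremes and the most abundant, and further list genes were picked with their values known. Some genes are not reported here. The code was tested on simulated data. Alternatives were 14 changes of the rule, weights, centring, other UMI minimums and leaving out top cells. The splits by Acta2 and by depth were chosen after seeing the data. The work used Python 3.11.15, numpy 2.4.6, scipy 1.17.1, pandas 2.3.3 and matplotlib 3.10.9.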

Additional observations from a re-analysis of the deposited data

How the results depend on the processing

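The share of Krt14 cells selected was 2.13% in KO and 7.70% in WT with the top 10% by basal score, 5.74% and 16.3% with the top 20%, and 9.19% and 7.99% with the top 15% within each library, where KO came above WT. It was 13.6% in WT with the top 10% by contractile score left out, 2.72% in KO and 8.70% in WT with the top 25% left out, 13.9% in WT with no cell cycle limit, and 4.86% in KO after thinning. Genes at least 2-fold lower in KO numbered 377 with limits within each library. Higher and lower genes numbered 312 and 1056 at a minimum of 20 UMIs and 54 and 182 at 200 UMIs. They numbered 110 and 270 in Acta2-high cells and 85 and 284 in cells under the median depth. For selected over other cells, genes lower in both libraries numbered 122 with a pseudocount of 50, and after thinning 35 were higher and 100 lower. The number of genes measured can change with each setting, so these counts are not shares and do not show whether the share moved. Log2 ratios of KO over WT changed sign for Prss27 (0.44 with the top 20%, 2.69 within each library, 0.97 with a pseudocount of 50, 1.60 after thinning), Pdzk1ip1 (0.82 within each library, 0.42 with a pseudocount of 50), Wfdc18 (0.75 within each library), Thbd (−0.047 after thinning) and Cxcl5 (0.15 after thinning). Ratios of selected over other cells changed sign for Krt6b in KO (1.72 within each library, 3.19 with a pseudocount of 50), Sprr2d in WT (0.57 with a pseudocount of 50, 0.036 after thinning), Klk6 in KO (1.52 after thinning) and Cysrt1 in KO (0.996 after thinning). The causes were not tested. The 14 genes plotted as higher in selected cells kept their direction in both libraries under every alternative computed. Fst stayed lower in KO under every alternative, between −4.92 and −1.76, and Mdk higher, between 2.19 and 4.15.

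No paired analysis was possible because each genotype had 1 library, and for the same reason no replicate could be left out. The 50 KO selected cells and their 1544180 UMIs limit every KO value: the floor of 3 UMIs is 1.94 CPM in KO and 0.395 CPM in WT selected cells. A difference between genotypes cannot be told apart from a difference between the 2 pools, cultures or library preparations.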
